A study of Arabidopsis thaliana with 8 samples.

Results

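The small RNA complement of the xrn4-3 single mutant of Arabidopsis thaliana was compared with that of wild type (WT) at every mRNA locus of the nuclear, chloroplast and mitochondrial genomes. The comparison took its 4 libraries from the sequencing labels, 2 of xrn4-3 and 2 of WT, out of 8 libraries in the series. All plants were of the Columbia (Col-0) accession, and the groups were plantlets grown in vitro for 24 days, in days of 12 h light (22 °C) followed by nights of 12 h (18 °C). xrn4-3 is a T-DNA insertion line that lacks the cytosolic 5′-3′ exoribonuclease XRN4. The other libraries, from urt1-1 (2 libraries) and urt1-1 xrn4-3 (2 libraries), lack the terminal uridylyltransferase URT1 alone or together with XRN4. They served to measure the loss of XRN4 a second time, as urt1-1 xrn4-3 against urt1-1, in libraries that are none of the 4 compared in xrn4-3 against WT. The spread was estimated over all 8 libraries at once, so the 2 lists of calls are not wholly separate.

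XRN4 degrades mRNAs from the 5′ end once the cap has been removed, and it also clears the 3′ fragments left when a microRNA directs cleavage of its target. When uncapped mRNAs persist in plants, RNA-dependent RNA polymerases can copy them into double-stranded RNA, which Dicer-like enzymes cut into small interfering RNAs (siRNAs). Small RNAs that map to mRNA loci are a readout of that route, together with breakdown fragments of the same length, and the counts do not separate the 2 kinds.

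Each value was the number of small RNA reads that overlapped an mRNA locus, given here as CPM, the count scaled to a library of 1000000 reads after TMM scaling. The WT and xrn4-3 libraries held between 7637546 and 14635404 counted reads, and 24722 of 24859 loci passed the filter on low counts. A locus was called raised or lowered at an adjusted p below 0.05 in edgeR's likelihood ratio test, and the stricter quasi-likelihood test is given beside it. With 2 biological replicates per genotype, no exact permutation test of a single value could go below p = 0.33, and p-values refer to the spread between these libraries. Values are given throughout as replicate 1 followed by replicate 2. The plantlets hold many tissues, whose markers small RNA cannot check, and in such bulk samples fewer cells of a type and less RNA per cell cannot be told apart.

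In the XRN4 gene itself (AT1G54490) small RNA stood at 13.0 and 11.4 CPM in WT and at 9.96 and 8.37 CPM in xrn4-3. Both mutant libraries lay below both WT libraries (log2 fold change -0.41, SE 0.38, adjusted p = 0.823 by the likelihood ratio test of edgeR). Small RNA over a locus does not measure its mRNA, so this value is no check of the insertion.

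Loss of XRN4 mostly raised small RNA. The likelihood ratio test of edgeR called 1035 loci raised, 4.19% of those tested, and 64 lowered, 0.259%. The quasi-likelihood test called 493 raised (1.99%), each of them among the 1035, and 5 lowered (0.0202%). At the raised loci the log2 fold change had a median of 2.30, a 4.94-fold gain, against 0.05 over all tested loci, and the range ran from 1.20 to 6.34. A log2 fold change of at least 2 was reached by 679 of them, of at least 3 by 262 and of at least 5 by 24. Both xrn4-3 libraries lay above both WT libraries at 1019 of the 1035 raised loci, compared with 22.9% of all tested loci. The call was made on these same libraries and favours such separation, so the 1019 are no separate evidence of agreement. Together the raised loci took 0.588% and 0.547% of counted reads in WT, and 3.28% and 9.81% in xrn4-3, a description of loci chosen on these counts.

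The number of calls depended on single libraries. It was 478 without WT replicate 1, 401 without WT replicate 2, 560 without xrn4-3 replicate 2 and 1631 without xrn4-3 replicate 1. The most raised loci were called under each of these 4 leave-outs, and 278 loci in all were raised in the full set and in every leave-out.

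The steepest rise was at BBX16 (AT1G73870, chromosome 1, 27779166 to 27780676 in TAIR10), which encodes a B-box zinc finger regulator. It went from 7.33 and 6.77 in WT to 221 and 921 CPM in xrn4-3. The groups were far apart, with replicate 2 of the mutant 4.16-fold above replicate 1. The log2 fold change was 6.34 (SE 0.65), with an adjusted p of 2.80e-11 by the likelihood ratio test and 0.0135 by the quasi-likelihood test of edgeR.

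PAO5 (AT4G29720), an oxidase of polyamines, had 3.93 and 3.96 CPM in WT and 54.2 and 419 CPM in xrn4-3, a log2 fold change of 5.90 (SE 0.76). GRF5 (AT3G13960), a growth-regulating transcription factor that promotes cell proliferation in leaves, had 2.22 and 2.61 CPM in WT and 57.0 and 186 CPM in the mutant. BRG2 (AT1G79110), a RING-type protein, rose from 3.56 and 2.50 CPM to 75.5 and 240 CPM. At each of these loci the lower mutant library exceeded the higher WT library more than 10-fold.

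Hormone and metabolic genes were among the 12 most raised loci too. At AT3G03990, which encodes the strigolactone receptor D14, small RNA went from 19.6 and 11.5 in WT to 346 and 1079 CPM in xrn4-3, a log2 fold change of 5.52 (SE 0.63). SERAT2;1 (AT1G55920), a serine acetyltransferase of cysteine synthesis, had 10.4 and 13.2 CPM in WT and 293 and 759 CPM in xrn4-3. ERF15 (AT2G31230), a transcription factor of the ethylene response factor family, had 0.963 and 1.46 CPM in WT against 20.9 and 77.8 CPM. ATL4 (AT3G60220), a RING-H2 protein, had 3.33 and 1.67 CPM in WT against 54.0 and 151 CPM. That WT and mutant libraries did not overlap was a condition for the 12 loci. The order of the mutant libraries was the same at each of these genes.

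The remaining 4 of the 12 encode proteins without a described function in the annotation. AT1G13360 had the highest levels of these, 51.0 and 40.5 CPM in WT and 1028 and 3346.5 CPM in xrn4-3. AT3G27250 went from 7.26 and 6.04 to 181 and 462 CPM, and AT1G12020 from 3.48 and 3.75 to 67.8 and 259 CPM. AT2G36030, with 1.33 and 0.104 CPM in WT and 17.4 and 45.9 CPM in xrn4-3, lies wholly inside the Ovate family gene AT2G36026 on the opposite strand. Counting did not use strand, so its reads and those of AT2G36026, itself raised, could not be separated.

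**Figure D1:**
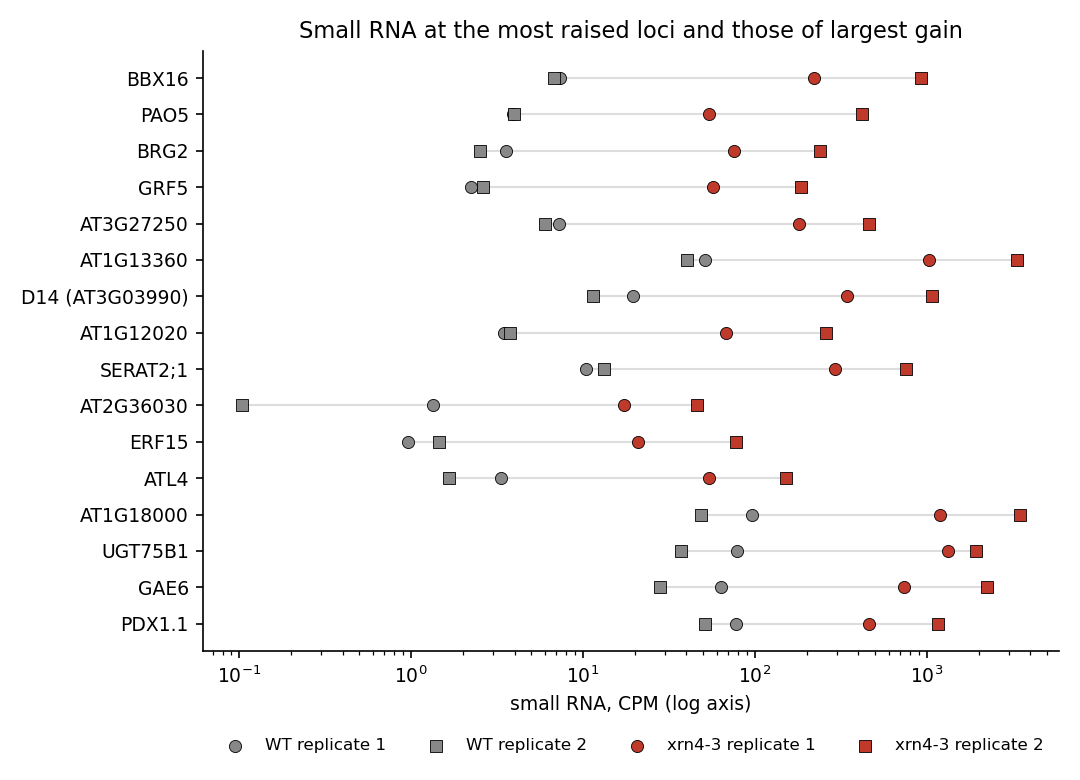
Small RNA in CPM, on a log axis, at the 12 most raised loci and at 4 more loci of largest gain, with 1 point per library (grey, WT; red, xrn4-3; circles, replicate 1; squares, replicate 2). At every locus both red points lie to the right of both grey points, which was a condition for choosing the 12. The squares of xrn4-3 lie to the right of its circles.

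Ranked by gain in CPM, 5 loci led. AT1G18000 and AT1G18010, neighbouring transporters of the major facilitator superfamily that share an identical run of 1912 bases, cannot be told apart by these reads and are given once: 96.6 and 48.5 CPM in WT and 1188 and 3483 CPM in xrn4-3 at AT1G18000. AT1G13360 followed, as given above. GAE6 (AT3G23820), an epimerase that makes a pectin precursor, had 63.6 and 28.2 CPM in WT and 735 and 2242 CPM in xrn4-3. UGT75B1 (AT1G05560), a UDP-glucosyltransferase, had 78.7 and 37.4 CPM in WT and 1328 and 1945 CPM in the mutant. PDX1.1 (AT2G38230), an enzyme of vitamin B6 synthesis, had 77.9 and 51.5 CPM in WT and 459 and 1156 CPM in the mutant. All 17 loci of both rankings, AT1G18010 included, kept their call without each library in turn, with a largest adjusted p of 0.0285 and a lowest log2 fold change of 2.83 (likelihood ratio test of edgeR).

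Both mutant libraries gained, but by unequal amounts. Over the raised loci replicate 2 of xrn4-3 stood at a median of 2.30 times replicate 1, against 0.976 times over loci not raised. The same ratio over the raised loci was 0.962 in WT. Replicate 2 was the higher at 960 of the 1035 loci. It exceeded replicate 1 more than 2-fold at 659 of them, and the reverse held at 32.

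At 43 raised loci the mutant libraries differed at least 8-fold, 26 with replicate 2 high and 17 with replicate 1 high. By this choice most of the gain came from 1 library, although at 27 of the 43 the lower mutant library also lay above both WT libraries. In PAI1 (AT1G07780), PAI2 (AT5G05590) and PAI3 (AT1G29410), tryptophan synthesis genes that encode phosphoribosylanthranilate isomerase, the lower mutant library lay close to WT. It was above both WT libraries at PAI3 alone. PAI2 had 4.37 and 3.96 CPM in WT and 443 and 3.54 CPM in xrn4-3. PAI1 had 6.67 and 8.34 CPM in WT and 536 and 7.77 CPM in xrn4-3. PAI3 had 2.15 and 1.35 CPM in WT and 156 and 2.68 CPM in xrn4-3. Only replicate 1 was high, and without it the log2 fold change of PAI2 turned from 5.74 to -0.24 (adjusted p = 0.878 by edgeR), while PAI1 and PAI3 fell to 0.06 and 0.59. None of the 3 was called by the quasi-likelihood test, with adjusted p from 0.0621 to 0.0789 in edgeR.

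The PAI genes share sequence, so a read can count at more than 1 of them. The longest run common to the mRNAs of all 3 was 104 bases, and PAI1 and PAI2 alone shared a run of 319. The common run is shown because any small RNA inside it maps to all 3 loci. It lies on the minus strand at chr5:1666822-1666925 in PAI2 and at chr1:10298539-10298642 in PAI3, within an exon, in the RefSeq annotation of TAIR10.1:
PAI1, PAI2 and PAI3: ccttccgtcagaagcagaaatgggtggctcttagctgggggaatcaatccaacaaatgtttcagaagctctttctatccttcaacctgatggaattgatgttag

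Replicate 2 alone was high at AT2G24310, with 1.56 and 1.35 CPM in WT and 0.882 and 101 CPM in xrn4-3, and at the cytochrome P450 gene CYP705A12 (AT5G42580), with 0.963 and 1.88 CPM in WT and 0.630 and 34.9 CPM in xrn4-3. Without that library the log2 fold changes became -0.72 for AT2G24310 and -1.14 for CYP705A12 (adjusted p = 0.975 and 0.933 by edgeR). AT5G37760, which shares 67.0% of its 21-base windows with the calmodulin-like gene TCH2, was high in replicate 1 alone, at 50.6 CPM against 0.949 CPM in replicate 2 and 0.667 and 0.938 CPM in WT. With all 43 such loci set aside, 992 raised loci remained.

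**Figure D2:**
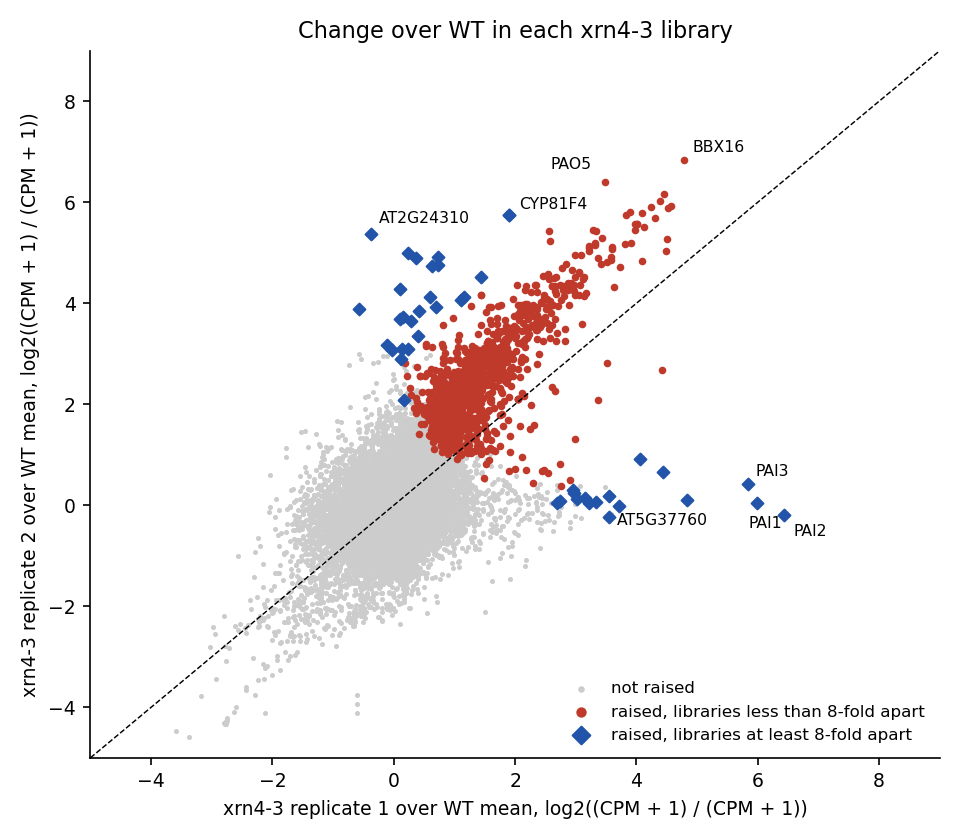
Change over the WT mean in each xrn4-3 library, as log2 of CPM plus 1 over CPM plus 1, with replicate 1 on the horizontal and replicate 2 on the vertical axis and 1 point per tested locus. Most raised loci (red) lie above the dashed line of equality, and the 43 whose libraries differ at least 8-fold (blue) lie along either axis, with the PAI genes far to the right.

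The second measurement of XRN4 loss compared other libraries, with the spread estimated over all 8 together. In urt1-1 xrn4-3 against urt1-1, 2066 loci were raised (8.36% of those tested) and 227 lowered (0.918%), and the quasi-likelihood test raised 1482 (5.99%). Of the 1035 loci raised in xrn4-3, 799 were raised there as well, 77.2% of the 1035 and 38.7% of the 2066. Their median log2 fold change there was 2.32, against 0.02 over all tested loci. A positive value was found at 1004 of the 1035, and the share over all tested loci was not counted. Across the 1035 loci, which are not independent, the 2 sets of log2 fold changes had a Spearman rho of 0.561. It was 0.533 over all tested loci, so the ranking was little closer at the raised ones.

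The share that was raised in both differed with how alike the xrn4-3 libraries were. Among raised loci whose mutant libraries differed less than 2-fold, 239 of 344 were also raised in urt1-1 xrn4-3 against urt1-1 (69.5%). The share was 503 of 579 for loci that differed 2-fold to 4-fold (86.9%) and 49 of 69 for those that differed 4-fold to 8-fold (71.0%). Among the 43 that differed at least 8-fold, 8 were (18.6%), none of them with replicate 1 high. PAI2 had 4.05 and 5.30 CPM in urt1-1 and 2.83 and 3.24 CPM in urt1-1 xrn4-3. Of the 278 loci raised in every leave-out, 268 were also raised there (96.4%). BBX16 stood at 11.1 and 10.2 CPM in urt1-1 and at 352 and 248 CPM in urt1-1 xrn4-3. GRF5 stood at 7.23 and 3.11 CPM in urt1-1 and at 658 and 309 CPM in urt1-1 xrn4-3. There replicate 1 was the higher double-mutant library, and over the raised loci the ratio of replicate 2 to replicate 1 in the double mutant had a median of 0.799.

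**Figure D3:**
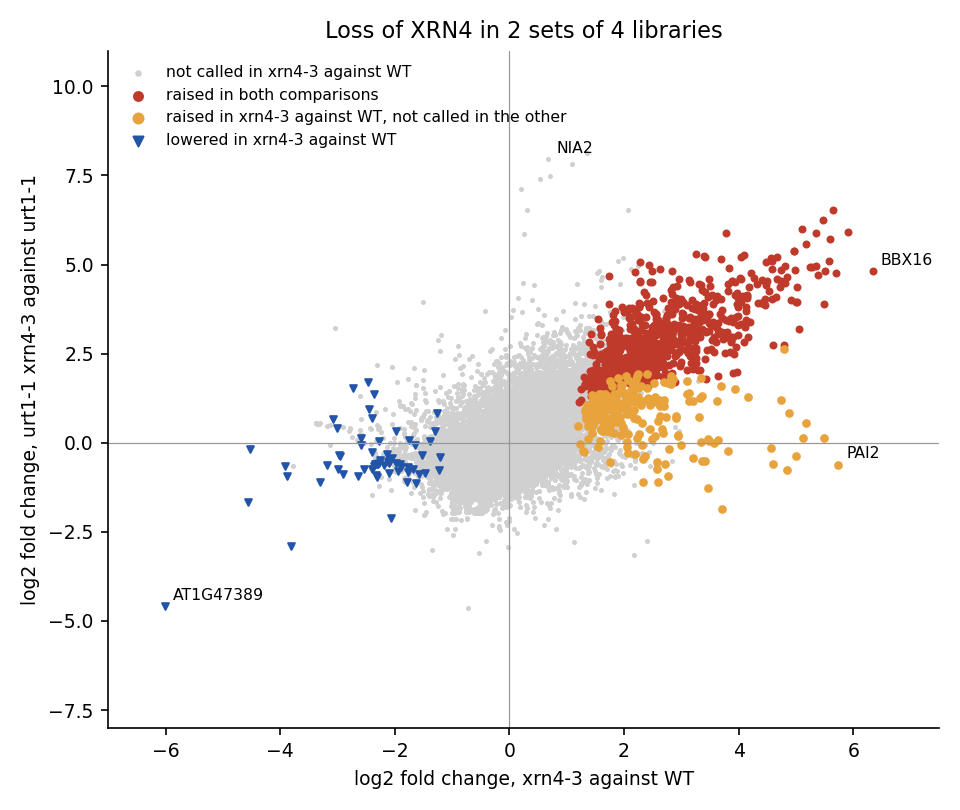
Log2 fold change of each tested locus in xrn4-3 against WT (horizontal) and in urt1-1 xrn4-3 against urt1-1 (vertical), which share no library. The 799 loci raised in both (red) run along the diagonal, 236 raised loci (orange) were not called on the vertical axis, and the 64 lowered loci (blue) lie mostly near 0 on it.

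Genes without introns were raised most often. Of 4409 tested loci with a single exon in the RefSeq model, 603 were raised (13.7%), against 5.46% with 2 exons, 2.48% with 3, 1.63% with 4 to 5, 1.00% with 6 to 10 and 0.267% with more than 10. Single-exon genes made up 59.4% of the raised loci with a gene model, 18.1% of all tested loci and 17.7% of the lowered ones. Among the loci raised by the quasi-likelihood test they made up 72.7%, and without each library in turn from 49.6% to 73.0% of the raised loci.

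The contrast was present in every bin of WT small RNA level and of mRNA length. In 4 equal bins of WT small RNA level, 10.5% to 17.4% of single-exon loci were raised, against 1.06% to 3.08% of the others. In 4 equal bins of mRNA length the ranges were 9.33% to 19.2% and 1.42% to 2.76%. GC content hardly set the raised loci apart, with a median of 41.3% against 41.4% over all tested loci, and neither did chromosome, with 4.11% to 4.45% raised on each of the 5 nuclear chromosomes. None of 88 chloroplast and 122 mitochondrial loci was raised by either test of edgeR or by DESeq2, and 0 had a higher value at an unadjusted p below 0.05. Chloroplast loci took 7.87% and 4.85% of reads in WT and 5.91% and 5.51% in xrn4-3 (exact two-sided permutation p = 1), with overlapping libraries.

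Classes read from words in the gene products differed widely in the share raised. Some families of transcription factors, auxin-response genes and glycosyltransferases had high shares. Ethylene response factors and DREB proteins had 16 of 82 loci raised (19.5%), SAUR or Aux/IAA auxin-response genes 19 of 126 (15.1%), glycosyltransferases 28 of 187 (15.0%), MYB factors 21 of 153 (13.7%) and RING or U-box ubiquitin ligases 39 of 489 (7.98%), beside 4.19% over all tested loci. Other regulatory classes stood nearer to that share, with bHLH factors at 5.83%, NAC factors at 5.0%, protein phosphatases 2C at 4.69% and kinases at 4.40%. At the other end stood ribosomal proteins with 1 of 332 (0.301%), kinesins and myosins with 1 of 113 (0.885%), photosystem or chlorophyll-binding proteins with 1 of 79 (1.27%), F-box proteins with 9 of 516 (1.74%) and transposon-related loci with 0 of 50 (0 also at an unadjusted p below 0.05 in edgeR and 0 by DESeq2). Pentatricopeptide repeat genes had 4 of 268 raised (1.49%), although 61.6% of them have a single exon. Single-exon loci made up 37.8% of ethylene response factors and DREB proteins, 42.9% of SAUR or Aux/IAA genes and 40.1% of glycosyltransferases. The share was 41.9% for F-box proteins, 4.58% for MYB genes and 18.1% over all tested loci. The class shares were not adjusted for exon number. In urt1-1 xrn4-3 against urt1-1, ribosomal proteins had 43 of 332 loci raised (13.0%), above the 8.36% of all tested loci. The other low classes named here stood below that share there, from 2.61% for pentatricopeptide repeat genes to 6.59% for F-box proteins. A locus can belong to more than 1 class, and no test was made between classes.

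Of 27 classes with a raised locus, 26 had a count that moved by more than 1.5 times under the quasi-likelihood test or a leave-out. Ethylene response factors had 8 raised by the quasi-likelihood test, 8 without WT replicate 1, 5 without WT replicate 2 and 9 without xrn4-3 replicate 2. MYB factors had 6 by the quasi-likelihood test and 6 or 7 in those leave-outs. SAUR or Aux/IAA genes had 10 by the quasi-likelihood test and from 5, without WT replicate 1 or without xrn4-3 replicate 2, to 29, without xrn4-3 replicate 1. RING or U-box ligases had 24 by the quasi-likelihood test, 17 without WT replicate 1, 22 without WT replicate 2 and 60 without xrn4-3 replicate 1. Glycosyltransferases had 19 by the quasi-likelihood test, 16 without WT replicate 2 and 18 without xrn4-3 replicate 2.

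**Figure D4:**
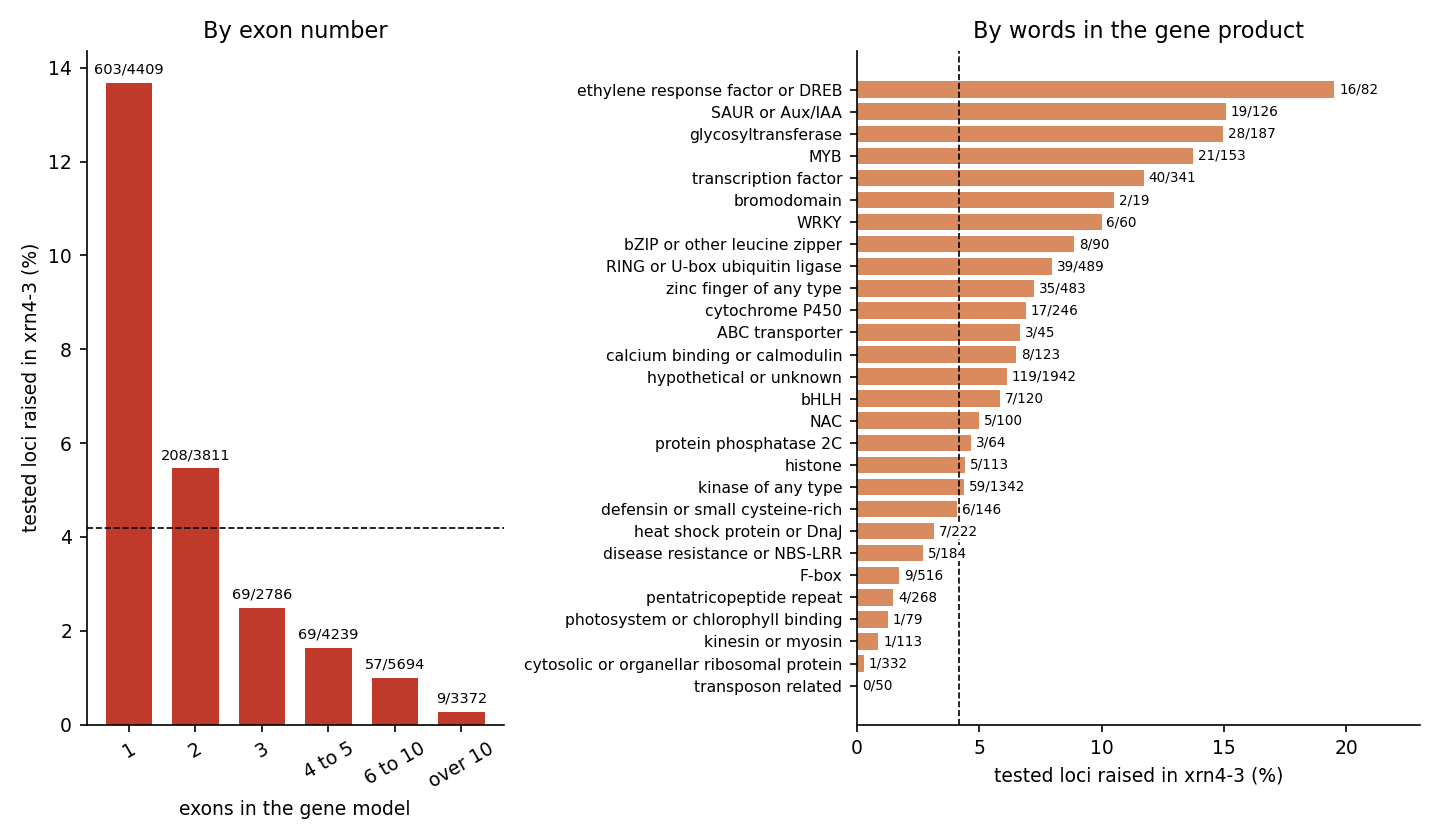
Percent of tested loci raised in xrn4-3 by number of exons (left) and by product class (right), with raised and tested loci written at each bar and a dashed line at 4.19%, the share over all tested loci. The share falls from 13.7% with 1 exon to 0.267% with over 10 exons, and runs from 0.301% for ribosomal proteins to 19.5% for ethylene response factors and DREB proteins, with transposon-related loci at 0.

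Members of these classes, chosen after their values were seen, show the sizes involved. UDP-glycosyltransferases add sugars to hormones and phenolic compounds. AT2G18560 had 8.0 and 8.23 CPM in WT and 129 and 491 CPM in xrn4-3, and its neighbour AT2G18570 had 17.9 and 18.8 against 193 and 836 CPM. UGT73B2 went from 10.4 and 5.52 to 203 and 346 CPM, and UGT84A3 from 25.0 and 14.4 to 350 and 589 CPM. In each case the lower mutant library exceeded the higher WT library more than 10-fold. Of the 28 raised glycosyltransferases, 25 were also raised in urt1-1 xrn4-3 against urt1-1.

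Among the transcription factors, MYB3 (AT1G22640), a repressor of phenylpropanoid genes, went from 3.85 and 5.0 in WT to 28.2 and 87.8 CPM in xrn4-3. MYB96 (AT5G62470), a regulator of cuticular wax synthesis, went from 4.52 and 2.08 to 16.4 and 47.4 CPM. ERF4 (AT3G15210), a repressor of the ethylene response factor family, went from 15.3 and 10.4 to 71.6 and 110 CPM. These groups did not overlap.

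Members of the ubiquitin ligases, a class of which 7.98% was raised, were chosen likewise. PUB25 (AT3G19380) and PUB26 (AT1G49780), paired U-box ligases of immunity and cold signalling, rose from 12.0 and 9.80 to 143 and 412 CPM and from 5.33 and 3.02 to 35.4 and 101 CPM. The auxin-induced SAUR19 (AT5G18010) went from 2.15 and 1.56 to 5.92 and 17.9 CPM, and it shares 50.7% of its 21-base windows with other loci, so that the raised genes of its cluster are not separate measurements.

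A further group was formed by loci listed with the same start, end and strand, where a short unannotated locus shares the transcript of a named gene. There were 40 such sets, and 10 were raised (25%, beside 4.19% of all tested loci), 4 of them also by the quasi-likelihood test (1.99% of all tested loci), with a median log2 fold change of 0.93 over the 40 sets. GBF6 (AT4G34590), also known as the sucrose-regulated bZIP11, went from 1.19 and 1.04 in WT to 5.17 and 18.6 CPM in xrn4-3 (log2 fold change 3.41, SE 0.61). Its relative bZIP2 (AT2G18160) went from 12.1 and 11 to 33.2 and 225 CPM. AT5G09460, which encodes the bHLH factor bHLH143, went from 10.9 and 7.29 to 40.7 and 42.6 CPM, with like levels in both mutant libraries. bZIP44, SAC51, HB-1, AT3G53400, AT3G22970, AT3G10910 and AT4G25670 made up the rest. All 10 were raised in urt1-1 xrn4-3 against urt1-1 too, where 22 of the 40 sets were raised, beside 8.36% of all tested loci. The counts of each set are 1 measurement, and which part of the transcript the reads cover cannot be read from them.

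Across 27 gene lists of 201 distinct loci, 23 loci were raised and none lowered, beside 4.19% raised and 0.259% lowered over all tested loci, and 8 lists had a raised member. A count of none lowered among 201 is near that background. Members and lists were chosen with earlier results of these data known, so the shares raised are a description only. The largest share was in rapid stress-response regulators, with 9 of 19 raised and a median log2 fold change of 0.90, beside 0.05 over all tested loci. CBF1, CBF2 and CBF3 (the last named DREB1A in the annotation), which switch on cold-response genes, had the smallest adjusted p of this list. CBF2 (AT4G25470) had 1.11 and 1.25 CPM in WT and 8.32 and 15.1 CPM in xrn4-3 (log2 fold change 3.32, SE 0.49, adjusted p = 1.20e-08 by the likelihood ratio test and 0.0135 by the quasi-likelihood test of edgeR). DREB1A (AT4G25480) had 1.11 and 1.35 CPM against 13.1 and 9.67 CPM, and CBF1 (AT4G25490) had 1.63 and 1.04 CPM against 9.33 and 9.49 CPM. At DREB1A replicate 1 was the higher mutant library, unlike at most raised loci.

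The CBF genes were also higher in urt1-1, with 5.06 and 6.39 CPM for CBF2 and 6.65 and 7.49 CPM for CBF1, a comparison that shares the WT libraries. In urt1-1 xrn4-3 against urt1-1 none of the 3 was called. CBF1 had 6.13 and 6.28 CPM in the double mutant (log2 fold change -0.18), CBF2 had 8.66 and 10.2 CPM (0.73, adjusted p = 0.342) and DREB1A had 15.3 and 11 CPM (1.16, adjusted p = 0.0677 by edgeR). ERF104 (AT5G61600), a target of stress-activated kinases, went from 7.19 and 4.48 in WT to 25.3 and 71.5 CPM in xrn4-3. The zinc finger repressor ZAT10 (STZ, AT1G27730) went from 6.30 and 5.31 to 18.9 and 23.7 CPM, and WRKY33 (AT2G38470), a factor of defence against fungi, from 8.0 and 6.98 to 25.6 and 22.7 CPM. WRKY53, WRKY6 and ERF5 were raised with log2 fold changes from 1.26 to 1.59, all with groups that did not overlap. The touch-induced genes TCH2, TCH3 and TCH4 of the same list had log2 fold changes of 0.17, -0.36 and -0.62 and passed no test. Of the 9 raised, 6 passed the quasi-likelihood test. The list had 5 raised members without WT replicate 1 and 4 without WT replicate 2, and 4 members of the list were raised in urt1-1 xrn4-3 against urt1-1.

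Abscisic acid signalling had the highest list median among lists of 6 or more loci, 1.56, with 4 of 11 raised. The protein phosphatase ABI1 (AT4G26080), which blocks the pathway without hormone, went from 6.15 and 10.6 in WT to 27.4 and 70.7 CPM in xrn4-3. Its relative HAB1 (AT1G72770) went from 2.44 and 4.48 to 7.56 and 12.6 CPM. The receptors PYR1 (AT4G17870) and PYL1 (AT5G46790) went from 13.1 and 7.5 to 24.0 and 54.9 CPM and from 3.3 and 1.35 to 5.17 and 8.89 CPM. No group overlapped at these 4. ABF3 (AT4G34000), a transcription factor downstream, had 178 and 2243 CPM in WT against 179 and 64.7 CPM in xrn4-3 and was not called, WT replicate 2 alone being high. The quasi-likelihood test called 1 of the 11, and 2 were called without WT replicate 1, 1 without WT replicate 2 and 0 without xrn4-3 replicate 2.

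Other hormone pathways had fewer raised members. In gibberellin signalling 2 of 8 loci were raised, both DELLA repressors of growth, and the quasi-likelihood test called both. GAI (AT1G14920) went from 26.2 and 17.5 in WT to 98.1 and 249 CPM in xrn4-3, and RGA (RGA1 in the annotation, AT2G01570) from 13.6 and 17.3 to 53.1 and 134 CPM. Without WT replicate 2 GAI had an adjusted p of 0.0653, and RGA1 had 0.0825 without WT replicate 1 and 0.0662 without xrn4-3 replicate 2 (likelihood ratio test of edgeR). The gibberellin receptors GID1A, GID1B and GID1C had log2 fold changes from 0.10 to 0.59 and passed no test.

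In ethylene signalling 1 of 13 loci was raised, EBF1 (AT2G25490), an F-box protein that removes the transcription factor EIN3. It had 29.6 and 33.4 CPM in WT and 138 and 507 CPM in xrn4-3, and it stayed called in each leave-out. In jasmonate signalling 1 of 8 was raised, MYC2 (AT1G32640), the main transcription factor of the pathway, with 16 and 9.80 CPM in WT and 35.9 and 78.9 CPM in xrn4-3. It shares 98.4% of its 21-base windows with the locus AT1G32630, so the reads may belong to either, and it was not called by the quasi-likelihood test (adjusted p = 0.0651), without WT replicate 2 or without xrn4-3 replicate 2.

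In heat stress the repressor-type factors HSFB2A and HSFB2B were raised, 2 of 16 loci, whereas in this comparison the 9 chaperones of the list were not. In urt1-1 xrn4-3 against urt1-1, 9 of the 16 loci were raised, beside 8.36% of all tested loci. HSFB2A and HSFB2B were among them, and the list median there was 1.99. HSFB2A (AT5G62020) had 2.96 and 4.17 CPM in WT and 6.93 and 21.4 CPM in xrn4-3. HSFB2B (AT-HSFB2B, AT4G11660) had 3.56 and 4.38 CPM against 6.43 and 20.1 CPM. Neither passed the quasi-likelihood test (adjusted p = 0.142 and 0.102) or remained called without WT replicate 1, WT replicate 2 or xrn4-3 replicate 2. No locus of auxin response, nitrate uptake and assimilation, cuticular wax, small RNA biogenesis or the circadian clock was called by either test of edgeR, and at an unadjusted p below 0.05 there were 1 of 7, 0 of 7, 1 of 6, 0 of 17 and 3 of 15 by the likelihood ratio test. FKF1 of the clock list, a blue-light receptor of flowering time (log2 fold change 1.56, adjusted p = 0.0652), was called with library size only (0.0136), with genome-mapped reads as library size (0.0159) and without WT replicate 1 (0.0285). IAA19 of the auxin list was called as lowered without WT replicate 1 (adjusted p = 0.0418 in edgeR). Over all lists, 4 of the 201 loci had a lower value at an unadjusted p below 0.05 by the likelihood ratio test and 3 by the quasi-likelihood test of edgeR, and DESeq2 lowered none.

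The mRNA decay machinery had 3 of 23 loci raised (4.19% of all tested loci) and 1 of 23 by the quasi-likelihood test (1.99% of all tested loci). The deadenylases CAF1b (AT5G22250) and CAF1a (AT3G44260), which shorten poly(A) tails, went from 2.30 and 2.19 to 6.81 and 48.9 CPM and from 8.59 and 2.40 to 19.4 and 48.5 CPM. The third was URT1 (AT2G45620), with 10.2 and 15.7 CPM in WT against 14 and 271 CPM, high in replicate 2 alone, and its log2 fold change was 0.11 without that library. CAF1b alone passed the quasi-likelihood test (adjusted p = 0.0283 in edgeR). In urt1-1 xrn4-3 against urt1-1 none of the 3 was called. The log2 fold changes there were 1.18 for CAF1b, 1.20 for CAF1a and 0.11 for URT1. Every library of that comparison carries the urt1-1 insertion in URT1 itself, so its value there does not repeat the measurement at the intact gene. The list had 5 raised without xrn4-3 replicate 1 and 1 without WT replicate 2 or xrn4-3 replicate 2. The decapping proteins DCP1, DCP2 and VCS and the nuclear exoribonucleases XRN2 and XRN3 had log2 fold changes between -0.29 and 0.13.

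**Figure D5:**
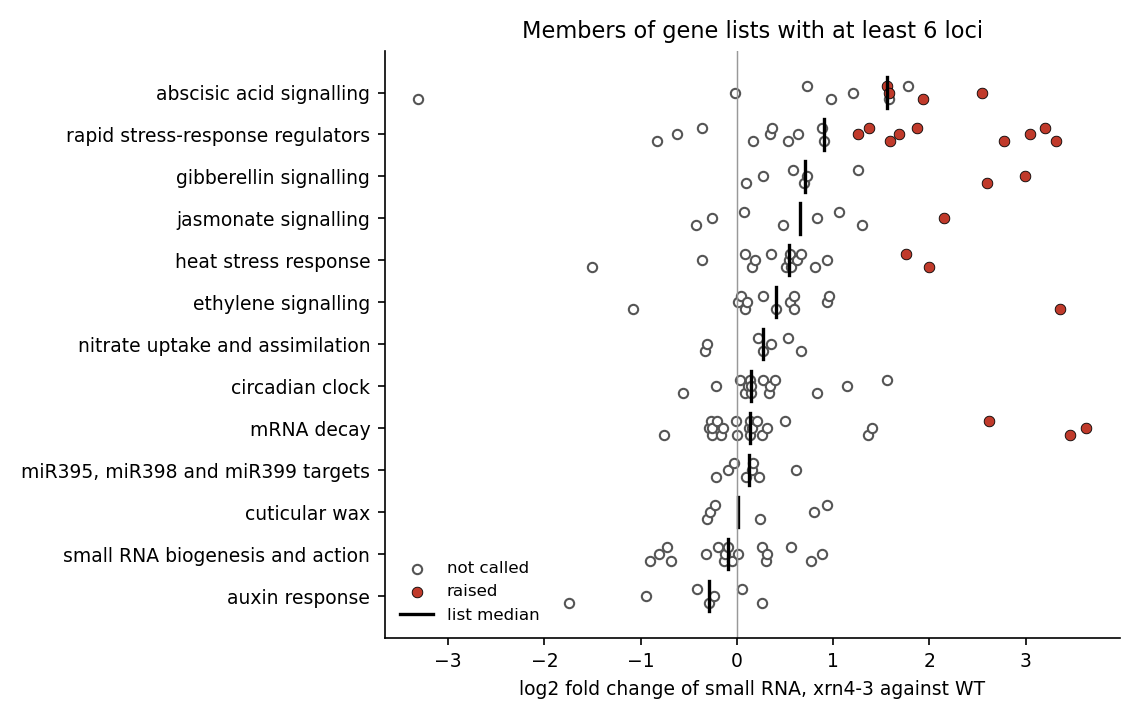
Log2 fold change in xrn4-3 against WT of the members of each list with at least 6 loci, with raised members in red, the others open and a vertical bar at the list median. Abscisic acid signalling (median 1.56) and rapid stress-response regulators (0.90) lie to the right, auxin response has the lowest median (-0.29), and small RNA biogenesis also has a median below 0 (-0.09).

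Targets of microRNAs were examined because XRN4 clears their 3′ cleavage fragments. In 15 lists of microRNA and tasiRNA targets with 53 loci, 1 was raised and none lowered by the likelihood ratio test of edgeR, near the 4.19% and 0.259% of all tested loci, with a median log2 fold change of 0.16, and 6 had an unadjusted p below 0.05 (5 by the quasi-likelihood test). The raised one was TCP3 (AT1G53230), a transcription factor of leaf shape cleaved through miR319, while its paralogue TCP4 (AT3G15030) was not called. The mature miR319a and its closest match in each coding sequence are shown, from RefSeq and TAIR10.1 (5′ to 3′). Capitals mark the seed, bases 2 to 8, in the microRNA. In the sites they mark bases equal to the exact complement, from which each site differs at 6 bases, G:U pairs included. The sites lie at chr1:19850522-19850542 (minus strand) for TCP3 and chr3:5063300-5063320 (plus strand) for TCP4:
miR319a: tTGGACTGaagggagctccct
TCP3: gaGGgGtcCCCTTCAGTCCAt
TCP4: gaGGgGtcCCCTTCAGTCCAg

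The sites of TCP3 and TCP4 differ from the exact complement of miR319a at the same number of bases. G:U pairs were not counted apart, so the pairing of the 2 sites was not compared. TCP3 went from 12.7 and 8.75 in WT to 24.3 and 37.5 CPM in xrn4-3 (log2 fold change 1.53, SE 0.48, adjusted p = 0.0395). TCP4 had 15.6 and 13.1 CPM in WT and 18.9 and 17.3 CPM in xrn4-3 (log2 fold change 0.33, adjusted p = 0.907 by edgeR), and the difference between them was not tested. The call for TCP3 was lost by the quasi-likelihood test (adjusted p = 0.128), by DESeq2 (0.0607), with only the 4 libraries in the fit and without WT replicate 1, WT replicate 2 or xrn4-3 replicate 2.

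The auxin receptors TIR1 and AFB2, targets of miR393, are a known source of secondary siRNAs, and in both genes the mutant libraries lay above the WT libraries without passing the test. AFB2 (AT3G26810) had 119 and 118 CPM in WT and 190.0 and 434 CPM in xrn4-3 (log2 fold change 1.40, adjusted p = 0.173). TIR1 (AT3G62980) had 23.7 and 23.3 CPM against 33.4 and 69.1 CPM (log2 fold change 1.13, adjusted p = 0.266 by edgeR). AFB2 was called without xrn4-3 replicate 1 (log2 fold change 1.88). The sites lie in the coding sequence at chr3:9870237-9870258 (plus strand) for AFB2 and chr3:23273727-23273748 (minus strand) for TIR1. Capitals are as above, with 2 and 3 bases that differ from the exact complement, G:U pairs included:
miR393a-5p: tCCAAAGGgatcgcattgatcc
AFB2: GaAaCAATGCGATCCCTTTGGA
TIR1: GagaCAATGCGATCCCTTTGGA

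Loss of small RNA was rarer and less alike between libraries. Both xrn4-3 libraries lay below both WT libraries at 55 of the 64 lowered loci, compared with 15.0% of all tested loci. As these loci were called on the same libraries, this only describes them. The 64 include 10 loci of alike counts, described below as 1 set. The median log2 fold change over the 64 was -2.28. The count was 192 without WT replicate 1 and 25 without xrn4-3 replicate 2. Of the 64, 3 were also lowered in urt1-1 xrn4-3 against urt1-1 (4.69%), with a median log2 fold change there of -0.59.

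The most lowered locus was AT1G47389 (chromosome 1, 17378652 to 17379374 in TAIR10), a single-exon gene of unknown function. It had 93 and 72 reads in the WT libraries and 0 and 2 reads in the xrn4-3 libraries, which is 6.89 and 7.5 CPM against 0 and 0.173 CPM. Scaled by library size the WT level was 69.7 times that of xrn4-3, with a 95% counting interval of 19.0 to 580 that covers counting error only (adjusted p = 2.64e-12 by the likelihood ratio test and 0.0135 by the quasi-likelihood test of edgeR). The same loss was seen in the other libraries, with 6.51 and 3.84 CPM in urt1-1 and 0.0766 and 0.273 CPM in urt1-1 xrn4-3. Every library without XRN4 was thus below every library with it.

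A further 3 loci were lowered in each of the 4 leave-outs. DD46 (AT1G22015), a galactosyltransferase family gene, had 11 and 4.79 CPM in WT and 0.504 and 0.604 CPM in xrn4-3. AT3G09960, a calcineurin-like phosphoesterase gene, had 55.8 and 47.9 CPM in WT and 11.1 and 2.07 CPM in xrn4-3, but 61.2 and 47.3 CPM in urt1-1 and 40.6 and 24.8 CPM in urt1-1 xrn4-3. AT5G16410, an acyltransferase gene named for this count and not by the rule, had 15.8 and 17.2 CPM in WT and 4.41 and 4.40 CPM in xrn4-3.

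Several of the other most lowered loci were high in WT replicate 1 alone. EMB2729 (AT3G20440), of the alpha-amylase family, had 83.8 and 8.96 CPM in WT and 6.18 and 5.70 CPM in xrn4-3. ALE1 (AT1G62340), a subtilase needed for the cuticle of the embryo, had 58.7 and 6.77 CPM in WT and 5.17 and 5.27 CPM in xrn4-3. AT2G39300 had 46.4 and 3.75 CPM in WT against 2.77 and 2.76 CPM, and AT1G49800 had 13.7 and 1.15 CPM against 0.378 and 0.604 CPM. Without that library their log2 fold changes fell from between -3.87 and -2.65 to between -1.17 and -0.38, and none was called. None of the 4 was called by the quasi-likelihood test either, or without xrn4-3 replicate 1 or replicate 2. At 15 of the 64 lowered loci the WT libraries differed at least 8-fold, 13 of them with replicate 1 high. AT5G48280, with 39.5 and 31.4 CPM in WT and 2.52 and 0.518 CPM in xrn4-3, was high in both WT libraries. Its call was lost by the quasi-likelihood test (adjusted p = 0.102 in edgeR) and without xrn4-3 replicate 2. The annotated microRNA ath-miR4243 lies inside this locus, and its part in the counts was not tested.

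A set of 10 lowered loci with unrelated products had similar counts in every library. They held 365 to 430 and 1152 to 1212 reads in the WT libraries and 119 to 151 and 164 to 223 reads in the xrn4-3 libraries. In WT they ran from 27 to 31.9 CPM in replicate 1 and from 120 to 126 CPM in replicate 2, and in xrn4-3 from 15.0 to 19.0 and from 14.2 to 19.2 CPM. Their log2 fold changes ran from -2.34 to -2.09, with adjusted p between 0.0294 and 0.0494 by the likelihood ratio test of edgeR. None of the 10 was called by the quasi-likelihood test of edgeR (adjusted p from 0.147 to 0.181). In urt1-1 they ran from 59.7 to 65.4 and from 37.1 to 42.4 CPM, and in urt1-1 xrn4-3 from 16 to 22.2 and from 47.7 to 51.7 CPM, so that replicate 1 was lower in the double mutant and replicate 2 higher.

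All 10 held a copy, with 1 mismatch, of a single 14-base sequence, the length of the shortest reads that were mapped, and mapping allowed 1 mismatch. The sequence had 0 exact copies in TAIR10.1 and 31 copies with 1 mismatch, and 26 of 24447 loci searched held such a copy (0.106%). The sequence was found from the 10 loci, so their share among the holders is no result. Of the other 16 holders none was called, with a lowest adjusted p of 0.0505 (likelihood ratio test of edgeR). Their log2 fold changes ran from -2.10 to -1.30, apart from -0.57 at AT4G33070, -0.02 at CKL13 and 0.35 at CRK36. The sequence is shown with the copies of 4 loci on chromosome 1, which differ from it at the base in capitals: SCAMP4 (AT1G03550, plus strand, chr1:887929-887942), AT1G34500 (minus strand, chr1:12611808-12611821), AT1G73510 (minus strand, chr1:27643104-27643117) and AT1G76290 (minus strand, chr1:28625012-28625025):
shared sequence: tggcgctagagaaa
SCAMP4: tggcgcCagagaaa
AT1G34500: tggAgctagagaaa
AT1G73510: tggcgAtagagaaa
AT1G76290: tggcgctGgagaaa

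The 10 loci are therefore described as 1 set of alike counts and not as 10 separate genes. Whether reads of this sequence make up their counts was not tested, since the table holds counts and no read sequences.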

How the data were processed

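Small RNA was sequenced in 8 libraries of Arabidopsis plantlets, 2 biological replicates for each of 4 genotypes. The authors prepared libraries from 3 µg of RNA with a size selection of 18 to 30 nt, sequenced them with 1 read of 50 bases, mapped trimmed reads of 14 to 30 nt to TAIR10 with Bowtie 1.0.0 (up to 1 mismatch, reads with over 50 loci discarded, best alignments kept) and counted reads per mRNA locus with bedtools 2.17.0, per the methods and the submitters' processing notes. A read can thus count at several loci. The deposited values used here are these raw counts per locus. The deposited CPM columns were not used. No strand option was stated, and AT4G37409 and CYP81F4, which overlap on opposite strands, had equal counts in all 8 libraries.

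Counts were fitted with edgeR 4.0.16 in R 4.3.3 (TMM, a filter at a count minimum of 10, 1 coefficient per genotype over all 8 libraries), and adjusted by Benjamini-Hochberg over 24722 loci at 0.05. The likelihood ratio test was the main test, after the negative binomial model of the study, and the quasi-likelihood test was given beside it. Fold changes are from that fit and CPM are TMM-scaled. The biological coefficient of variation was 0.325. DESeq2 1.42.0, other scalings, filters, sets of libraries and each library left out were tried. Named loci were, among those that averaged 10 reads or more over the 4 libraries, XRN4, the 12 most raised by both tests and the 8 most lowered with groups that did not overlap, the 5 of largest gain in CPM, the 5 whose mutant libraries differed most, and up to 4 raised members per list (or the member of smallest p). Loci given beyond this rule were chosen after their values were seen. A locus with most of its 21-base windows in one already named is given with it. The members and lists were chosen with earlier results of these data known. Gene models, exon numbers and sequences came from RefSeq on TAIR10.1, matched by locus for 24441 loci. Scripts were tested on simulated data.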

Additional observations from a re-analysis of the deposited data

Results flagged for a closer look

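The change that went with loss of XRN4 differed between the WT and the urt1-1 background at 2 of the named loci, by the interaction term in the fit of all 8 libraries. NIA2 (AT1G37130), a nitrate reductase, had a log2 fold change of 0.67 (SE 0.61) in xrn4-3 against WT, with 262 and 212 CPM in WT and 408 and 345 CPM in xrn4-3. In the urt1-1 background it had 7.95 (SE 0.61), a difference of 7.29 (SE 0.87, adjusted p = 2.01e-10 by the likelihood ratio test of edgeR). CBF1 (AT4G25490) rose in xrn4-3 and not in urt1-1 xrn4-3 over urt1-1, a difference of -2.96 (SE 0.57, adjusted p = 0.000439). By the quasi-likelihood test the adjusted p was 0.185 for both NIA2 and CBF1. Over all loci the likelihood ratio test called 22 such differences upward and 8 downward and the quasi-likelihood test of edgeR called 0, with 1151 at an unadjusted p below 0.05. Of the loci raised in xrn4-3, 3 had a called difference.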

How the results depend on the processing

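Raised loci numbered 1035 by the likelihood ratio test, 493 by the quasi-likelihood test and from 401 to 1631 with each WT or xrn4-3 library left out. Lowered loci numbered 64, against 5 by the quasi-likelihood test, 22 with library size only, 21 with genome-mapped reads as library size and from 25 to 192 in the leave-outs. In urt1-1 xrn4-3 against urt1-1, 227 lowered loci became 70 by the quasi-likelihood test and 358 with only the 4 libraries of that comparison. The share of raised loci called there, 77.2%, was 86.8% by the quasi-likelihood test and 85.3% with only the 4 libraries. DESeq2 gave 830 raised and 94 lowered loci. Scaling by library size alone moved the median log2 fold change of all loci to 0.31, and genome-mapped reads moved it to 0.27, from 0.05. The organelle ratios moved by less than the replicate spread. The single-exon share of the raised loci was 59.4%, and 72.7% by the quasi-likelihood test, with its range over the leave-outs given above. The other counts of loci raised or lowered over the whole table stayed within 1.5 times. Counts by class and list, whose alternatives were chosen after seeing the data, moved more: 26 of 27 classes and 7 of 8 lists with a raised locus passed 1.5 times under the quasi-likelihood test or a leave-out. WRKY factors, for example, went from 6 to between 0 and 8, kinases from 59 to between 23 and 85, and cytochromes P450 from 17 to between 2 and 26.

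A change of sign was seen for PAI2 without xrn4-3 replicate 1 (-0.24, up to 6.73 in the other leave-outs), and for AT2G24310 (-0.72, up to 6.10) and CYP705A12 (-1.14, up to 4.64) without xrn4-3 replicate 2, in each case the library that carried the gain. Of 49 named loci that were called, 20 lost their call by the quasi-likelihood test, 6 by DESeq2 and from 8 to 18 in the leave-outs, and the cause was not tested.

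Biological replicates were plants grown at different times, per the study's reporting summary. Some came from another seed stock or a separate mutagenesis event, without a statement of which. The sources used here do not say that a number marks the same time in every genotype. Deviations of same-numbered libraries correlated at 0.00571 to 0.419 over pairs of genotypes, and at 0.0435 for WT with xrn4-3. With a replicate block 1229 loci were raised, 1031 of them among the 1035, and 88 lowered. Among named loci the block changed only the call of FKF1 (adjusted p = 0.0066). Depth limits loci of low counts, and 2 replicates limit every call.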
